A study of Mus musculus with 9 samples.

Results

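Cortex of mice with experimental autoimmune encephalomyelitis (EAE) that received the gold nanocluster Au18(L-NIBC)14 was compared with cortex of untreated EAE mice, gene by gene. Every gene of the deposited count table that passed a filter on low counts was kept, which left 18644 of 34714 rows. Each group held 3 libraries of poly(A)-selected RNA, and 3 libraries of naive cortex, without EAE or drug, shared the fit. The groups are called treated, EAE and naive here. The labels give the tissue and the treatment; they state no dose, schedule, day of sampling, strain, sex or age, and do not say what the EAE mice received in place of the drug. Nothing in the labels ties the 3 libraries of a group to separate animals by more than a number, so p-values measure the spread between these samples.

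EAE is a mouse model of multiple sclerosis in which an immune response against myelin brings inflammatory cells into the central nervous system. The nanocluster is a small core of gold atoms covered by the thiol ligand L-NIBC, and the series title names ASC as its target. ASC, encoded by Pycard, is the adaptor that links inflammasome sensors such as NLRP3 to caspase-1, which matures interleukin-1β and interleukin-18 and cleaves gasdermin D. Inflammasome assembly acts on protein, and the libraries measure RNA.

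The libraries held between 26972179 and 45243553 counts, and the treated and EAE ranges overlapped. EAE replicate 1 stood apart in the choroid plexus: the summed level of 5 of its markers was 893 CPM there (CPM, counts scaled to the library's total), against 27.1 to 103 in the other EAE libraries, 7.42 to 18.7 in the treated libraries and 11.4 to 44.8 in the naive ones. Excitatory neuron markers, defining for cortex, summed to 1846 to 1939 CPM in treated libraries and 1463 to 1688 CPM in EAE libraries. Abundant genes weigh most in such a sum. Of 25 excitatory and layer genes tested singly, 21 were higher in treated than in EAE cortex, beside 50.6% of all genes. Only 1 of the 25 (4%) had treated and EAE libraries without overlap, beside 19.2% of all genes. Thalamus markers (93.0 to 104 CPM treated, 115 to 125 CPM EAE) and hypothalamus markers (0.992 to 1.64 CPM treated, 2.81 to 15.6 CPM EAE) were lower in the treated libraries without overlap. The 15.6 CPM came from EAE replicate 3, while EAE replicates 1 and 2 had 3.86 and 2.81 CPM. Striatum markers varied widely inside every group, at 219 to 649 CPM in treated, 169 to 859 CPM in EAE and 142 to 1022 CPM in naive libraries. The part of dissection was not tested. In bulk tissue, fewer cells of a type and less RNA per cell cannot be told apart.

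At an adjusted p under 0.05, 41 of 18644 genes (0.22%) differed between treated and EAE cortex. Of these 17 rose with treatment (0.0912%) and 24 fell (0.129%). The genes that rose held 6 of sterol synthesis and its control, 2 globins, and single genes of neurons and metabolism led by Shisa4 and Lhpp. Among those that fell were the hormone- and stress-responsive genes Ddit4, Klf15, Nfkbia, Sgk1 and Arrdc2, the lipid genes Abca1 and Srebf1, the RNA-binding gene Rbm3, the chaperone gene Rtp1, and glial and matrix genes such as Sparc, Sdc4 and Gjb6. Across all genes the median log2 fold change was 0.00, and 5% of genes lay below -0.68 and 5% above 0.49. An absolute log2 fold change above 1 was seen in 586 genes, 164 higher and 422 lower, and 11 of them passed the test.

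**Figure D1:**
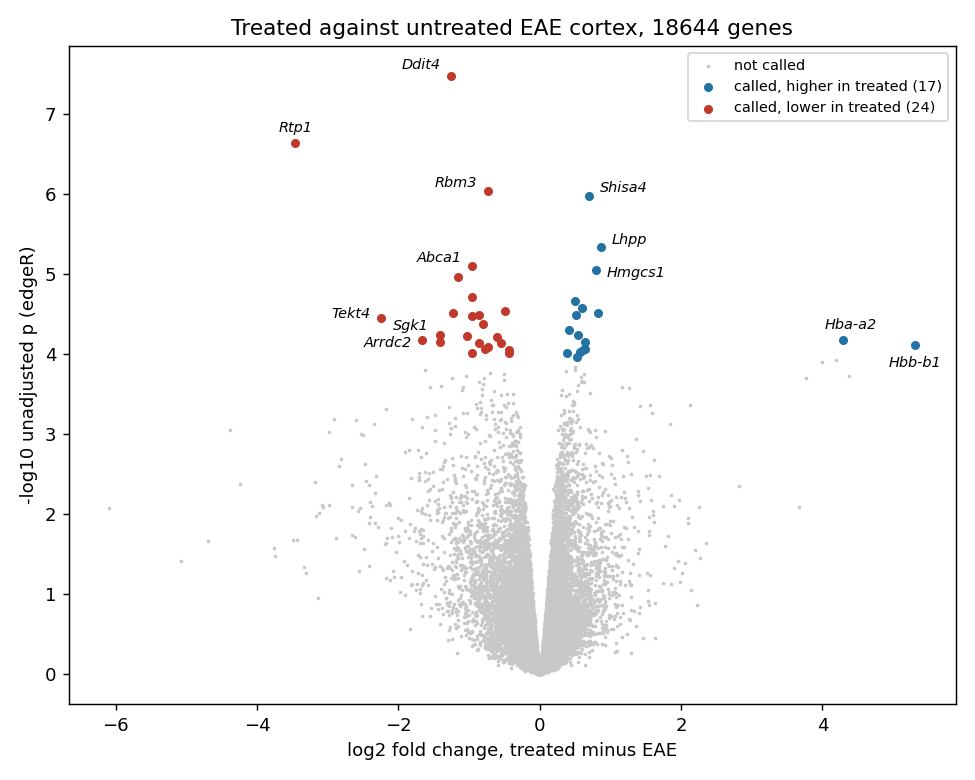
Each point is 1 of 18644 genes, with the log2 fold change of treated minus EAE on the x axis and minus log10 of the unadjusted edgeR p on the y axis; coloured points passed an adjusted p of 0.05. The 17 higher and 24 lower genes sit at the top, with Ddit4 highest and the globin genes farthest right, while many genes with larger changes than most of these lie lower down.

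All 41 called genes had treated and EAE libraries that did not overlap, against 3583 of all genes (19.2%). The number called depended on the model. DESeq2, the tool named in the series' design text, called 688 genes (3.69% of 18636), 315 higher and 373 lower, with all 41 among them; at an unadjusted p under 0.05 edgeR gave 2812 (15.1%), the share beside which the counts of list members at that level below are to be read. When only the 6 treated and EAE libraries were fitted, 3 genes passed. With the replicate number as a block, 4 passed in those 6 libraries, 3 of them among the 41 (Ddit4, Rtp1 and Gjb6), and 46 passed in all 9 libraries, 30 of them among the 41. The blocked fit of all 9 lost Gm52861, Sgk1, Hba-a2, AY036118, Kcna6, Sqle, Igbp1, Stard4, Dgcr8, Srebf2 and Gramd2, whose adjusted p then lay between 0.0510 and 0.0733.

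Leaving out 1 library at a time left between 4 and 38 genes called. The number was 14, 4 and 14 without naive replicates 1, 2 and 3, then 38, 6 and 5 without EAE replicates 1, 2 and 3, and 20, 10 and 4 without treated replicates 1, 2 and 3. Without EAE replicate 1, only 12 of the 38 genes were among the 41. Ddit4, Rtp1, Rbm3 and Shisa4 were called in all 9 of these fits, 25 others in 1 to 5 of them, and 12 of the 41 genes in none. The sign of the fold change was the same for all 41 genes in every fit tried, a direction that libraries without overlap fix in the fits that leave 1 of them out.

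**Figure D2:**
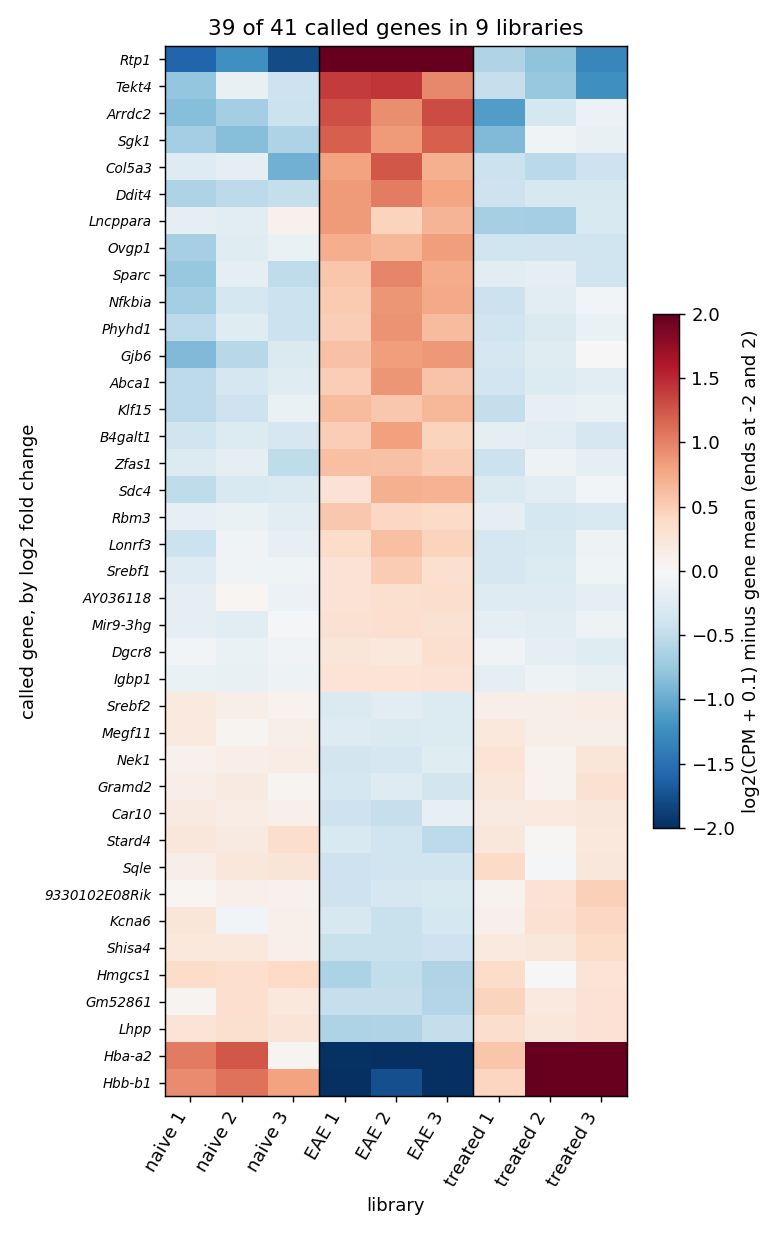
Of the 41 called genes, 39 (rows, ordered by fold change) in the 9 libraries (columns), coloured by log2(CPM + 0.1) minus the gene's mean over the libraries, with the scale ending at -2 and 2. The EAE columns differ in colour from the treated columns in every row, and treated replicate 1 is paler than the other treated libraries for Hba-a2 and Hbb-b1.

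Among genes that fell, Ddit4 had the smallest p. It encodes REDD1, an inhibitor of mTORC1 that glucocorticoids, hypoxia and energy stress induce. Its level was 29.4, 31.3 and 31.4 CPM in treated replicates 1, 2 and 3, 71.1, 80.2 and 67.8 CPM in EAE and 25.5, 27.3 and 28.1 CPM in naive cortex. The EAE libraries were all above 60 CPM while every treated and naive library was below 35, and the treated libraries were all slightly above the naive ones. The fall was 2.38-fold (log2 fold change -1.25, SE 0.08, adjusted p = 0.000623), and the gene was called in every alternative fit. Ddit4 lies on chromosome 10, 59949675 to 59951770 (GRCm38.p6).

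Another 4 genes that hormones of the adrenal cortex induce in many tissues fell as well. Sgk1, a kinase that regulates ion channels and transporters, measured 48.5, 85.5 and 80.5 CPM in treated and 206, 162 and 205 CPM in EAE libraries (log2 fold change -1.42, SE 0.20, adjusted p = 0.0456). Its treated libraries were all under 90 CPM, with replicate 1 lowest, and the EAE libraries all above 150. Klf15, a transcription factor of amino acid and lipid metabolism, measured 28.4, 35.3 and 36.3 CPM in treated and 61.2, 57.6 and 62.9 CPM in EAE libraries (log2 fold change -0.86, SE 0.12, adjusted p = 0.0364). The alpha-arrestin gene Arrdc2 measured 7.81, 13.4 and 15.8 CPM in treated and 41.5, 32.4 and 42.4 CPM in EAE libraries (log2 fold change -1.66, SE 0.24, adjusted p = 0.0456). Nfkbia, which encodes the NF-κB inhibitor IκBα, measured 13.2, 15.2 and 17.1 CPM in treated and 25.6, 32.8 and 30.0 CPM in EAE libraries (log2 fold change -0.96, SE 0.13, adjusted p = 0.0364). In each of these 4 genes treated replicate 1 was the lowest of the treated libraries. Klf15 and Nfkbia were called in 2 of the 9 fits without a library, Sgk1 and Arrdc2 in 1.

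In a list of 25 glucocorticoid-induced genes, 5 were called, all lower (Ddit4, Klf15, Nfkbia, Sgk1 and Arrdc2), and 0 higher. All 25 had a log2 fold change below 0, with a median of -0.84, beside 0.00 over all genes tested, of which 9425 were above 0. Treated and EAE libraries did not overlap in 20 of the 25 (80.0%), beside 19.2% of all genes. This list, like the others here, was chosen with earlier results of these data known, so its shares are description only. Fkbp5, a co-chaperone of the glucocorticoid receptor, did not pass (log2 fold change -1.28, SE 0.25, adjusted p = 0.0931). Its treated libraries measured 41.2, 46.7 and 22.4 CPM and its EAE libraries 92.7, 101 and 75.3 CPM. Without EAE replicate 2 the list's median was -0.71. Corticosterone was not analysed here.

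Upstream sequence is shown for 3 of the called genes, because the letters of a glucocorticoid response element, a sterol regulatory element and a CCAAT box can be looked for there. The sequences are from RefSeq (GRCm38.p6), 5′ to 3′ on the gene's strand, with the matched letters in capitals. Sgk1, at 1 of its annotated starts (chr10:21993660-21993749, plus strand), held the letters GNACANNNTGTNC beginning 188 bases before the start. Ddit4 (chr10:59951871-59951960, minus strand) held CCAAT on the opposite strand, beginning 170 and 137 bases before the start.
Sgk1: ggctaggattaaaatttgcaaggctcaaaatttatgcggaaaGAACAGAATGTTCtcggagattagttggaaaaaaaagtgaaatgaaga
Ddit4: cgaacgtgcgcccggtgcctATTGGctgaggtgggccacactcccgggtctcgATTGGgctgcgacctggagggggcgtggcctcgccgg

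Windows of 250 bases before the start were found for 14637 of the tested genes and 31 of the 41 called ones. Both strands were searched. The glucocorticoid element letters were in 0.33% of genes with a window, in 3 of 22 such genes of the glucocorticoid list (13.64%) and in 1 of the 22 called genes that fell and had a window, Sgk1. CCAAT was in 39.13% of all genes and in 12 of those 22. The E-box CACGTG was in 8.91% of all genes and in 5 of the 22, and the STAT letters TTCNNNGAA in 7.23% and in 4 of the 22. A match describes the letters and shows no binding.

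Abca1, which exports cholesterol from cells to apolipoproteins, measured 44.7, 48.2 and 50.5 CPM in treated, 82.7, 108 and 87.1 CPM in EAE and 40.8, 46.4 and 49.6 CPM in naive libraries. The treated and naive libraries overlapped, and all EAE libraries were above 80 CPM (log2 fold change -0.95, SE 0.11, adjusted p = 0.0238). Srebf1, the transcription factor of fatty acid synthesis and a target of liver X receptors, measured 59.8, 62.8 and 71 CPM in treated and 92.2, 108 and 94.8 CPM in EAE libraries (log2 fold change -0.61, SE 0.09, adjusted p = 0.0456). Phyhd1, a dioxygenase gene related to phytanoyl-CoA hydroxylase, measured 15.3, 16.3 and 18.2 CPM in treated and 28.2, 37.4 and 31.2 CPM in EAE libraries (log2 fold change -0.96, SE 0.12, adjusted p = 0.0364). Of the exon bases of Phyhd1, 47.0% are shared with Gm28035 on the same strand, so its reads cannot be told apart from those of that gene. Abca1 was called in 4 of the 9 fits without a library, Phyhd1 in 2 and Srebf1 in 0.

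Of the called genes that rose, 6 belong to the mevalonate and cholesterol pathway or its control. In this pathway Hmgcs1 makes HMG-CoA, Sqle forms the epoxide of squalene, Stard4 carries cholesterol between membranes, and Srebf2 encodes the factor that drives their transcription when sterols are low. Hmgcs1 measured 310.4, 240.3 and 291 CPM in treated, 156, 171 and 158 CPM in EAE and 309.6, 303 and 317 CPM in naive libraries. Treated replicate 2 was the lowest treated library and still above every EAE library, and the rise was 1.74-fold (log2 fold change 0.80, SE 0.09, adjusted p = 0.0238). Sqle measured 71.7, 54.1 and 64.3 CPM in treated and 41.2, 41.8 and 41.5 CPM in EAE libraries (log2 fold change 0.61, SE 0.10, adjusted p = 0.0457). In both genes treated replicate 2 was the lowest of the treated libraries, without reaching the EAE range.

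For Stard4 the treated libraries measured 39.2, 34.2 and 38.9 CPM and the EAE libraries 27.1, 25.5 and 23.3 CPM (log2 fold change 0.57, SE 0.09, adjusted p = 0.0457). Srebf2 had the smallest change of all called genes, with 286, 288 and 294 CPM in treated and 217, 228 and 220.1 CPM in EAE libraries (log2 fold change 0.38, SE 0.06, adjusted p = 0.0457). The EAE libraries of each gene lay close together and below all treated ones. Dhcr7, which makes cholesterol from its direct precursor, was just outside the threshold (log2 fold change 0.50, SE 0.08, adjusted p = 0.0643). Hmgcs1 was called in 4 of the 9 fits without a library, Sqle in 1, and Stard4 and Srebf2 in 0.

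Of 25 genes in a list of cholesterol synthesis, 6 were called higher and 0 lower, and 23 had a log2 fold change above 0. The list's median was 0.43, beside 0.00 over all genes, and was 0.32 without treated replicate 3. Treated and EAE libraries did not overlap in 20 of the 25, beside 19.2% of all genes. This list too was chosen with earlier results of these data known. With DESeq2, 13 of the 25 passed, all higher, beside 3.69% of all genes. Beside this, the summed level of oligodendrocyte markers overlapped between the groups (2570 to 8589 CPM treated, 4692 to 5421 CPM EAE). That of astrocyte markers did too (1814 to 2227 CPM treated, 1782 to 2418 CPM EAE). Excitatory neuron markers summed higher in treated libraries without overlap (1846 to 1939 CPM treated, 1463 to 1688 CPM EAE). The part of cell composition in the sterol values was not tested.

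The upstream sequence of Hmgcs1 (chr13:119690161-119690320, plus strand, RefSeq GRCm38.p6) is shown because it held the sterol regulatory element letters TCACNCCAC, beginning 137 bases before the start, between CCAAT boxes on the opposite strand that began 176 and 45 bases before the start.
Hmgcs1: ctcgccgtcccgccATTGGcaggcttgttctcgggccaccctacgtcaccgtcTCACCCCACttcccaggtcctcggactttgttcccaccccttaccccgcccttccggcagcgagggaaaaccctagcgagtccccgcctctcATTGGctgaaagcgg

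Those sterol element letters were in 1.19% of genes with a window and in 1 of 17 such genes of the cholesterol list, Hmgcs1 itself. CCAAT was in 16 of those 17 genes (94.12%), against 39.13% of all genes with a window. The count rests on the list, not on the calls.

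**Figure D3:**
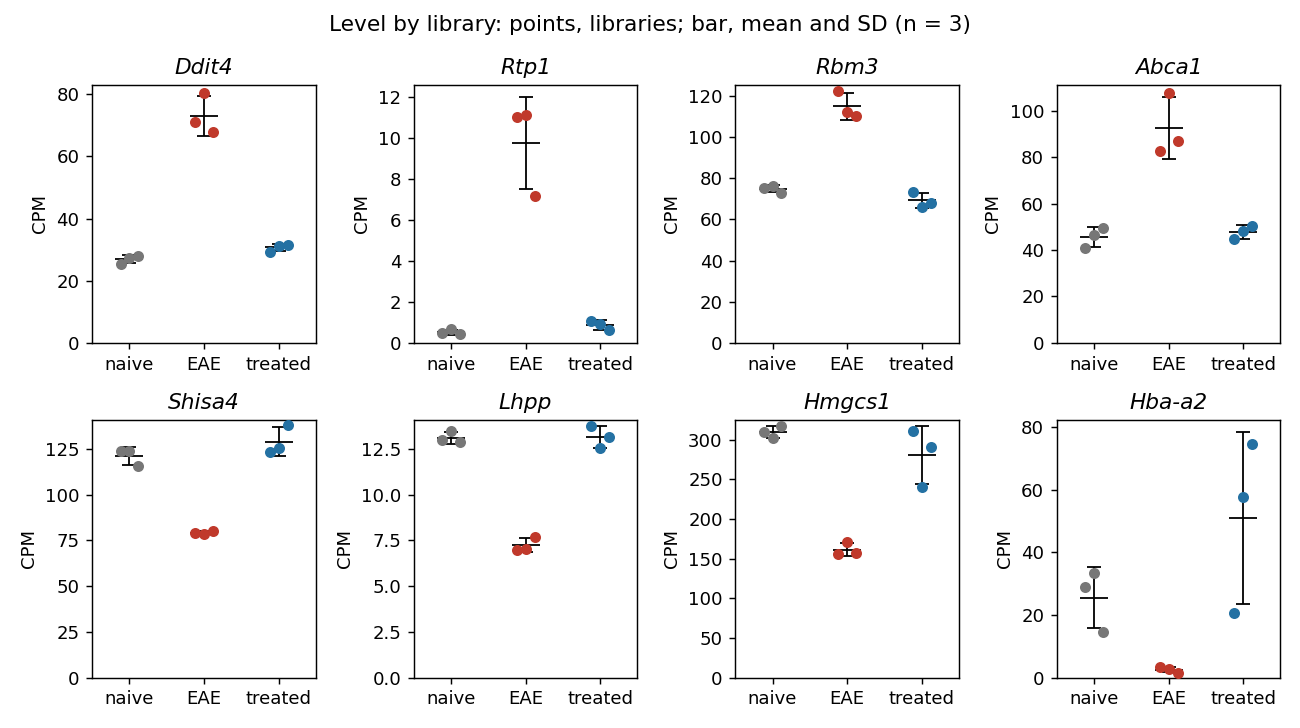
CPM of 8 called genes in each library (points), with the mean and SD of each group of 3 (bars); every y axis starts at 0. EAE stands above treated and naive for Ddit4, Rtp1, Rbm3 and Abca1 and below them for Shisa4, Lhpp, Hmgcs1 and Hba-a2, whose treated libraries spread from 20.6 to 74.4 CPM.

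Among the called genes the largest fall was that of Rtp1, a chaperone that brings odorant receptors to the cell surface. It measured 1.07, 0.925 and 0.625 CPM in treated, 11, 11.1 and 7.19 CPM in EAE and 0.492, 0.66 and 0.414 CPM in naive libraries. Every treated library was below 1.1 CPM and every EAE library above 7, a fall of 11-fold (log2 fold change -3.46, SE 0.27, adjusted p = 0.00214), and the gene was called in every alternative fit. Tekt4, a tektin of ciliary and flagellar microtubules, measured 0.635, 0.498 and 0.331 CPM in treated and 2.56, 2.62 and 1.88 CPM in EAE libraries (log2 fold change -2.24, SE 0.31, adjusted p = 0.0364). It was called in none of the fits without a library. The summed level of 4 ependymal markers overlapped between treated (7.57 to 13.4 CPM) and EAE libraries (8.47 to 19.4 CPM). Of 24 ependyma and motile cilia genes tested, 19 had a log2 fold change below 0 and 5 above. The part of ependymal cells in the fall of Tekt4 was not tested. Ovgp1, named for a secreted oviduct glycoprotein, measured 8.11, 8.11 and 8.12 CPM in treated and 17.8, 17.1 and 19.2 CPM in EAE libraries (log2 fold change -1.15, SE 0.14, adjusted p = 0.0252), and 28.7% of its exon bases are shared with Gm42890.

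Rbm3, a cold-inducible RNA-binding protein gene, measured 73.3, 66.3 and 68.2 CPM in treated, 122, 112 and 110.3 CPM in EAE and 75.4, 76.5 and 73 CPM in naive libraries. The EAE libraries were all above 110 CPM and the others all below 77 (log2 fold change -0.73, SE 0.07, adjusted p = 0.00493). The gene was called in all 9 fits without a library. Zfas1, a long non-coding RNA that hosts small nucleolar RNAs, measured 12.2, 15.4 and 14.4 CPM in treated and 25.1, 24.9 and 23.6 CPM in EAE libraries (log2 fold change -0.81, SE 0.11, adjusted p = 0.0410). AY036118, outside the naming rule and named after its values were seen, had a log2 fold change of -0.55 (SE 0.08, adjusted p = 0.0456), and all of its exon bases lie within a ribosomal RNA gene on its strand and Gm42418 on the other.

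Host transcripts of microRNAs were among the genes that fell. Mir9-3hg measured 39.9, 39.6 and 42.7 CPM in treated and 56.9, 58.2 and 56.6 CPM in EAE libraries (log2 fold change -0.49, SE 0.07, adjusted p = 0.0364). Lncppara, whose exons contain Mirlet7c-2 and Mirlet7b, measured 3.64, 3.60 and 4.67 CPM in treated, 10.5, 7.96 and 9.34 CPM in EAE and 5.05, 4.99 and 6.13 CPM in naive libraries (log2 fold change -1.23, SE 0.17, adjusted p = 0.0364). The treated libraries of Lncppara were below all naive ones as well as all EAE ones. Dgcr8, the RNA-binding partner of Drosha in the complex that cuts primary microRNAs, measured 43.8, 40.3 and 39 CPM in treated and 54.6, 53.6 and 57.7 CPM in EAE libraries (log2 fold change -0.43, SE 0.07, adjusted p = 0.0457). These libraries count the host genes, and mature microRNAs were not analysed here.

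The mature microRNAs encoded there are shown from RefSeq (GRCm38.p6, all on the plus strand) with the seed, bases 2 to 8, in capitals, to show which hosts share a seed. They lie at chr15:85707325-85707346, chr15:85706616-85706637 and chr7:79505279-79505301, in this order. Both let-7 members in Lncppara carry the same seed, and that of miR-9-5p in Mir9-3hg is another.
mmu-let-7b-5p: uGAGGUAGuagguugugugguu
mmu-let-7c-5p: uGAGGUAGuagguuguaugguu
mmu-miR-9-5p: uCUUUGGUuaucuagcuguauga

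Among other genes that fell, Sparc, a secreted matrix glycoprotein gene, measured 186, 188 and 164 CPM in treated and 316, 425 and 359.9 CPM in EAE libraries (log2 fold change -1.03, SE 0.15, adjusted p = 0.0456). Gjb6, which encodes the astrocyte gap junction protein connexin 30, measured 45, 48 and 56.2 CPM in treated and 85.2, 102 and 103 CPM in EAE libraries (log2 fold change -0.96, SE 0.15, adjusted p = 0.0457). For Sdc4, a heparan sulfate proteoglycan gene, the values were 47.6, 50.1 and 56.1 CPM in treated and 71.5, 95.4 and 94.9 CPM in EAE libraries (log2 fold change -0.77, SE 0.12, adjusted p = 0.0457). In Gjb6 and Sdc4 treated replicate 3 was the highest treated library and EAE replicate 1 the lowest EAE library, and the groups did not overlap. Col5a3, a fibrillar collagen chain gene, had a log2 fold change of -1.41 (SE 0.21, adjusted p = 0.0456). B4galt1, a galactosyltransferase of glycoprotein chains, changed by -0.85 (SE 0.13, adjusted p = 0.0456).

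The last called genes that fell were Lonrf3, a RING finger protein gene, with a log2 fold change of -0.73 (SE 0.11, adjusted p = 0.0457), and Igbp1, a regulatory partner of protein phosphatases, with -0.43 (SE 0.07, adjusted p = 0.0457). Igbp1 moved from 28.2 ± 0.276 CPM (SD, n = 3) in EAE to 20.9 ± 0.671 CPM (SD, n = 3) in treated libraries.

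Shisa4 led the genes that rose. It encodes a membrane protein of the Shisa family, and it measured 123, 126 and 138 CPM in treated, 78.9, 78.8 and 80.2 CPM in EAE and 124, 124 and 116 CPM in naive libraries. The EAE libraries lay within 2 CPM of each other and below all the rest (log2 fold change 0.70, SE 0.07, adjusted p = 0.00493). Lhpp, a histidine phosphatase gene, measured 13.7, 12.5 and 13.2 CPM in treated, 6.98, 7.05 and 7.68 CPM in EAE and 13, 13.5 and 12.9 CPM in naive libraries, a rise of 1.82-fold (log2 fold change 0.86, SE 0.09, adjusted p = 0.0172). Treated and naive libraries of Lhpp overlapped, and every EAE library was below them. Shisa4 was called in all 9 fits without a library and Lhpp in 5.

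Other genes that rose included several of neurons. Kcna6, a voltage-gated potassium channel subunit, measured 123, 141 and 153 CPM in treated and 92.2, 84.6 and 89.9 CPM in EAE libraries (log2 fold change 0.65, SE 0.10, adjusted p = 0.0457), and 39.6% of its exon bases overlap the antisense gene Gm26673, whose reads cannot be told apart without strand. Car10, a carbonic anhydrase relative without catalytic activity that binds neurexins, measured 118, 119.8 and 123 CPM in treated and 78.8, 76 and 93 CPM in EAE libraries (log2 fold change 0.54, SE 0.08, adjusted p = 0.0456). Megf11, a cell surface protein that spaces retinal neurons, had a log2 fold change of 0.42 (SE 0.06, adjusted p = 0.0456). Nek1, a kinase of cilia and the DNA damage response, changed by 0.51 (SE 0.07, adjusted p = 0.0364), and Gramd2 by 0.53 (SE 0.08, adjusted p = 0.0490). The non-coding genes Gm52861 and 9330102E08Rik, named after their values were seen, rose by 0.83 and 0.64 on the log2 scale (adjusted p = 0.0364 and 0.0456). Lingo1, an inhibitor of axon growth and myelination, was just outside the threshold (log2 fold change 0.50, SE 0.08, adjusted p = 0.0606).

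The largest rises among the called genes were those of globin genes. Hba-a2, an adult alpha-globin gene, measured 20.6, 57.7 and 74.4 CPM in treated, 3.47, 2.62 and 1.63 CPM in EAE and 28.9, 33.3 and 14.5 CPM in naive libraries. Treated replicate 1 was within the naive range and the other treated libraries above it, and all were above EAE (log2 fold change 4.30, SE 0.58, adjusted p = 0.0456). Hbb-b1, an adult beta-globin gene, measured 1.39, 5.53 and 5.40 CPM in treated and 0, 0.226 and 0.0695 CPM in EAE libraries (log2 fold change 5.31, SE 0.78, adjusted p = 0.0457). Its EAE levels rest on few reads, and both genes have near-identical copies whose reads the counting could split. Hbb-b1 has no GENCODE entry under that name. Whether its reads are separate from those of the beta-globin gene Hbb-bs was not tested.

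Hbb-bs (log2 fold change 4.20, SE 0.60, adjusted p = 0.0527) and Alas2, the erythroid enzyme that starts heme synthesis (log2 fold change 3.99, SE 0.63, adjusted p = 0.0542), lay just outside the threshold. Of 11 erythrocyte genes tested, 2 were called higher (0.0912% of all genes were) and 0 lower (0.129% of all genes were), with a median of 3.76. Treated and EAE libraries did not overlap in 6 of the 11 (54.5%), beside 19.2% of all genes. The summed level of 5 erythrocyte markers was 102 to 380 CPM in treated, 7.16 to 23.6 CPM in EAE and 131 to 175 CPM in naive libraries. The treated and EAE ranges did not overlap, and the EAE libraries were the low ones. The part of blood in the samples was not tested.

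Genes of the inflammasome did not pass the test. Pycard, which encodes ASC, measured 1.95, 3.13 and 2.28 CPM in treated and 2.04, 3.85 and 4.48 CPM in EAE libraries, with a log2 fold change of -0.49 (95% interval -1.15 to 0.17, adjusted p = 0.485). Gsdmd, the gasdermin that forms the pyroptotic pore, measured 3.08, 4.01 and 2.68 CPM in treated and 3.41, 7.96 and 5.56 CPM in EAE libraries (log2 fold change -0.79, 95% interval -1.43 to -0.14, adjusted p = 0.241). For Il18 the difference was -0.10 (95% interval -0.33 to 0.13, adjusted p = 0.701). These intervals leave room for changes in either direction for Pycard and Il18.

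Nlrp3, the sensor gene, had a log2 fold change of 0.47 (95% interval -0.43 to 1.37, adjusted p = 0.64). Casp1 had -0.29 (95% interval -1.63 to 1.04, adjusted p = 0.868). Il1b had 0.11 (95% interval -2.12 to 2.35, adjusted p = 0.974), at 0.146, 0.522 and 0.478 CPM in treated and 0, 0.226 and 0.834 CPM in EAE libraries. The sign of these 3 turned when a library or a pair of libraries was left out. Of 26 inflammasome and pyroptosis genes tested, 0 were called by edgeR, 4 had an unadjusted p under 0.05 and 1 passed with DESeq2, and the median was -0.24. Txnip, an alpha-arrestin that binds thioredoxin, had the smallest p of them (log2 fold change -0.90, SE 0.17, adjusted p = 0.0851). Of 42 genes of NOD-like receptor and NF-κB signalling 1 was called, Nfkbia, lower, and the median was -0.10. The groups did not overlap in 1 of the 26 inflammasome and pyroptosis genes and 10 of these 42, beside 19.2% of all genes.

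In 22 monocyte and macrophage genes 0 were called, 11 had an unadjusted p under 0.05, 4 passed with DESeq2, and the median was -1.32. S100a4, a calcium-binding protein gene of myeloid cells and fibroblasts, was just outside the threshold (log2 fold change -1.62, SE 0.27, adjusted p = 0.0643). It measured 1.03, 0.854 and 0.845 CPM in treated and 2.08, 3.78 and 2.54 CPM in EAE libraries. Gm42674 on the same strand shares 51.7% of the exon bases of S100a4. Summed levels of 5 monocyte markers overlapped, with 3.60 to 6.33 CPM in treated and 4.90 to 23.6 CPM in EAE libraries, and neutrophil markers stayed under 2 CPM in every library. In 5 of the 22 monocyte and macrophage genes treated and EAE libraries did not overlap, beside 19.2% of all genes.

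For antigen presentation, 0 of 11 MHC class II genes were called (6 at an unadjusted p under 0.05, 2 with DESeq2, median -0.85). H2-Ab1, a class II beta chain gene, measured 2.52, 3.75 and 1.07 CPM in treated and 2.69, 17.3 and 18.6 CPM in EAE libraries (log2 fold change -2.37, SE 0.68, adjusted p = 0.172). EAE replicate 1 lay inside the treated range and the other EAE libraries far above it. Among 21 MHC class I genes 0 were called (11 at an unadjusted p under 0.05, 1 higher and 5 lower with DESeq2, median -0.49). Without EAE replicate 1 the median was -0.85. H2-D1, a classical class I gene, measured 42.4, 55.8 and 56.5 CPM in treated and 68.6, 188 and 104 CPM in EAE libraries (log2 fold change -1.22, SE 0.33, adjusted p = 0.158). No overlap of treated and EAE libraries was seen in 1 of the 11 class II and 6 of the 21 class I genes, beside 19.2% of all genes.

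Among interferon-induced genes EAE replicate 1 was the lowest EAE library for both named below. Of 32 type I interferon genes 0 were called (7 at an unadjusted p under 0.05, 1 with DESeq2), all 32 were below 0 (50.6% of all genes were above it), and the median of -0.62 became -0.05 without EAE replicate 2. Bst2, the antiviral protein tetherin, measured 2.49, 4.60 and 2.76 CPM in treated and 3.63, 13.2 and 8.58 CPM in EAE libraries (log2 fold change -1.36, SE 0.43, adjusted p = 0.189). Of 19 genes induced by interferon gamma, mostly GTPases, 0 were called (5 at an unadjusted p under 0.05, 2 with DESeq2, median -0.67). The chemokine gene Cxcl10 was the lowest of these, with 0.146, 1.04 and 0.0735 CPM in treated and 0.746, 5.79 and 5.14 CPM in EAE libraries (log2 fold change -3.13, SE 0.95, adjusted p = 0.183). Libraries of the groups did not overlap in 0 of the 19 interferon gamma genes and 2 of the 32 type I genes, beside 19.2% of all genes.

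Of 21 complement genes 0 were called (8 at an unadjusted p under 0.05, 6 with DESeq2, median -0.67, and -0.32 without EAE replicate 2). C3ar1, the receptor of C3a, measured 2.08, 2.63 and 2.17 CPM in treated and 3.60, 8.28 and 7.33 CPM in EAE libraries (log2 fold change -1.48, SE 0.29, adjusted p = 0.0896), without overlap. Of 33 reactive astrocyte genes 0 were called (15 at an unadjusted p under 0.05, 9 with DESeq2), with a median of -0.80, which was -0.56 without EAE replicate 2. Vim, the intermediate filament of reactive astrocytes and vessel cells, measured 34.8, 32.3 and 38.3 CPM in treated and 46.6, 67 and 67.5 CPM in EAE libraries (log2 fold change -0.78, SE 0.13, adjusted p = 0.0667), and Hspb1, a small heat shock protein gene, had -1.08 (SE 0.19, adjusted p = 0.0727). Of 28 disease-associated microglia genes 0 were called (19 at an unadjusted p under 0.05, 8 with DESeq2, median -0.51). Apoe, the lipid carrier, measured 1371, 1225 and 1487 CPM in treated and 1784, 2436 and 1890.4 CPM in EAE libraries (log2 fold change -0.58, SE 0.13, adjusted p = 0.106). Genes without overlap of the groups were 5 of 21 for complement, 12 of 33 for reactive astrocytes and 7 of 28 for disease-associated microglia. Over all genes the share was 19.2%.

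Choroid plexus genes had the lowest median of the described lists, -1.99 over 21 genes, of which 0 were called, 12 had an unadjusted p under 0.05 and 7 passed with DESeq2. The median was -0.72 without EAE replicate 1, the library with 893 CPM of its markers. Treated and EAE libraries did not overlap in 7 of the 21, beside 19.2% of all genes. Trpv4, a cation channel gene, had the smallest p of the list (log2 fold change -1.55, SE 0.28, adjusted p = 0.0727). It measured 1.86, 1.35 and 2.02 CPM in treated and 6.56, 5.30 and 3.44 CPM in EAE libraries, all of them above the treated ones.

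**Figure D4:**
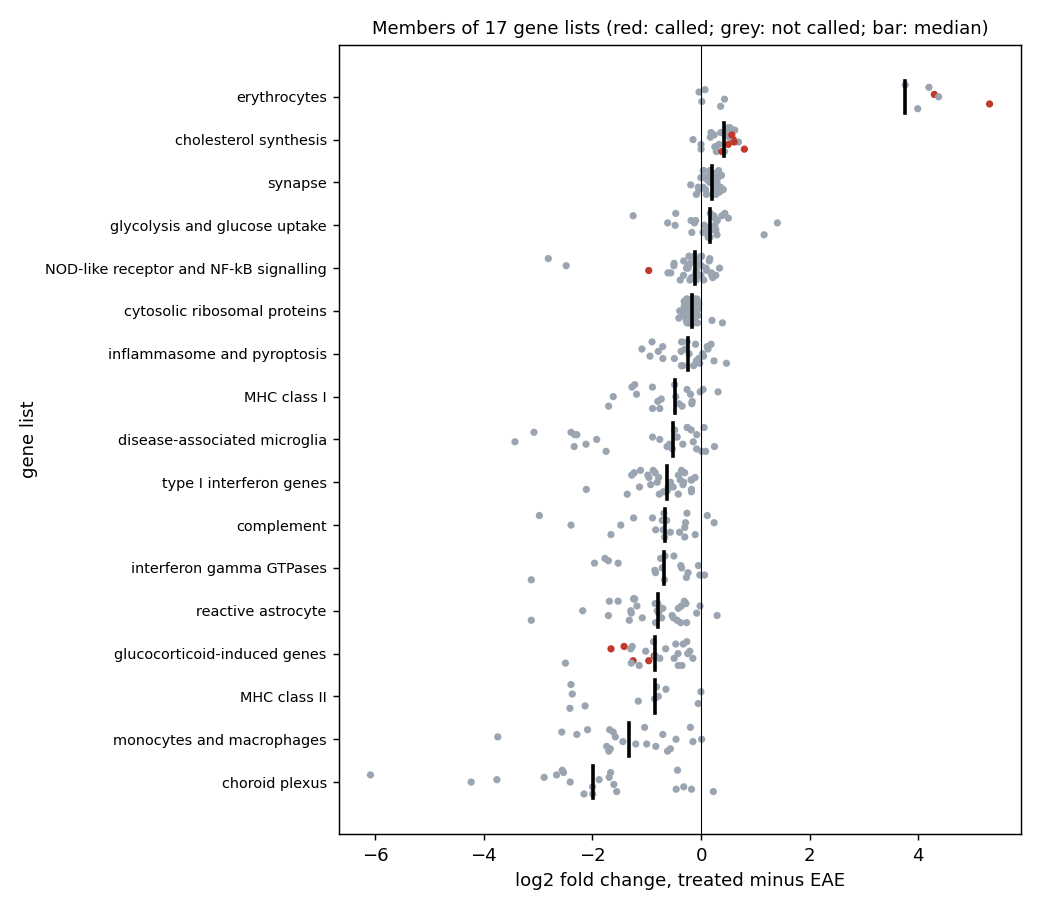
Log2 fold changes of treated minus EAE (x axis) for the members of 17 gene lists (rows); each point is a gene, red where it passed the test, and the black bar is the list's median. Red points occur in the lists of glucocorticoid-induced, cholesterol synthesis, erythrocyte and NF-κB genes, and the medians of the interferon, MHC, complement, monocyte, reactive astrocyte and disease-associated microglia lists lie left of 0 with grey points only.

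Of 38 synapse genes 0 were called (14 at an unadjusted p under 0.05, 5 with DESeq2, median 0.21, 33 above 0). The groups did not overlap in 15 of the 38 (39.5%), beside 19.2% of all genes. Of all genes 3.69% passed with DESeq2 and 50.6% lay above 0. Stx1a, a syntaxin of vesicle release, measured 290.4, 307 and 351 CPM in treated and 229.7, 228 and 257 CPM in EAE libraries (log2 fold change 0.41, SE 0.09, adjusted p = 0.102). Summed levels of excitatory neuron markers, given above, did not overlap between these groups, but of 25 excitatory and layer genes only 1 was without overlap. The part of excitatory neurons in the synapse values was not tested. Of 30 genes of glycolysis and glucose uptake 0 were called (15 at an unadjusted p under 0.05, 6 higher and 2 lower with DESeq2). Their median was 0.17, and 0.07 without treated replicate 2. Treated and EAE libraries did not overlap in 16 of the 30, beside 19.2% of all genes. Hkdc1, a hexokinase relative, had the smallest p of that list (log2 fold change 1.16, SE 0.20, adjusted p = 0.0727), and the glucose transporter gene Slc2a1 lay on the other side of 0 (log2 fold change -0.62, SE 0.15, adjusted p = 0.139).

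Cytosolic ribosomal protein genes were slightly below 0 together. Of 79 such genes 0 were called, 77 were at or below 0, 39 had an unadjusted p under 0.05, 9 passed with DESeq2, and the median was -0.17. No overlap of the groups was seen in 39 of the 79, beside 19.2% of all genes. Rps21 measured 82.6, 95 and 98.8 CPM in treated and 124, 127 and 116 CPM in EAE libraries (log2 fold change -0.41, SE 0.08, adjusted p = 0.0919). Many ribosomal protein genes have processed copies in the genome whose reads the counting could split.

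Levels in treated cortex can be set beside naive cortex, with the same treated libraries in both comparisons. By edgeR 0 of 18644 genes (0%) differed between treated and naive cortex, with 318 at an unadjusted p under 0.05. DESeq2 called 3, all higher in treated, named after their values were seen. Lcn2, an iron-binding acute-phase protein gene, measured 2.15, 9.39 and 4.23 CPM in treated, 2.27, 7.89 and 28.7 CPM in EAE and 0.268, 0.11 and 0.138 CPM in naive libraries. Lrch4 measured 3.32, 4.27 and 2.43 CPM in treated and 1.10, 1.36 and 1.03 CPM in naive libraries, and Gm46731 was 0 in 1 treated, 2 EAE and all naive libraries. EAE against naive, which shares the EAE libraries with the main comparison, had 184 genes past the threshold (0.987%).

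Of the 41 called genes, 38 had treated libraries that overlapped the naive range; the others were Ddit4, Lncppara and AY036118. Over all genes, treated and naive libraries did not overlap in 1165 (6.25%), so the called genes' share was near the background. The 95% interval of treated minus naive held 0 in 36 of the 41. For Rtp1 that difference was 0.77 (95% interval 0.10 to 1.44) and for Ddit4 0.19 (0.01 to 0.37), both above 0. For Hmgcs1 it was -0.14 (-0.35 to 0.07), for Abca1 0.07 (-0.18 to 0.32) and for Shisa4 0.09 (-0.06 to 0.24). For Hba-a2 the interval was wide, -0.12 to 2.10. EAE minus naive was 1.44 for Ddit4, 4.23 for Rtp1, -0.94 for Hmgcs1 and -0.61 for Shisa4. All 41 had the opposite sign there to treated minus EAE. Both comparisons share the EAE libraries on which the genes were called, so nearness to naive is partly set by that choice and is description only.

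Position, length and base composition of the called genes were set beside those of all tested genes. Of those matched to the annotation, the 15 that rose lay on 10 chromosomes and the 24 that fell on 15. Their median exon length was 5586 bases for genes that rose and 3396 bases for genes that fell, beside 4171 bases for all 16664 matched genes, and median GC content was 50.5%, 51.7% and 49.7%. Across those 16664 genes, which are not independent replicates, Spearman's rho of the log2 fold change was 0.006 with exon length and -0.015 with GC content. Protein-coding genes made up 93.3% of the genes that rose, 83.3% of those that fell and 90.6% of all matched genes.

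**Figure D5:**
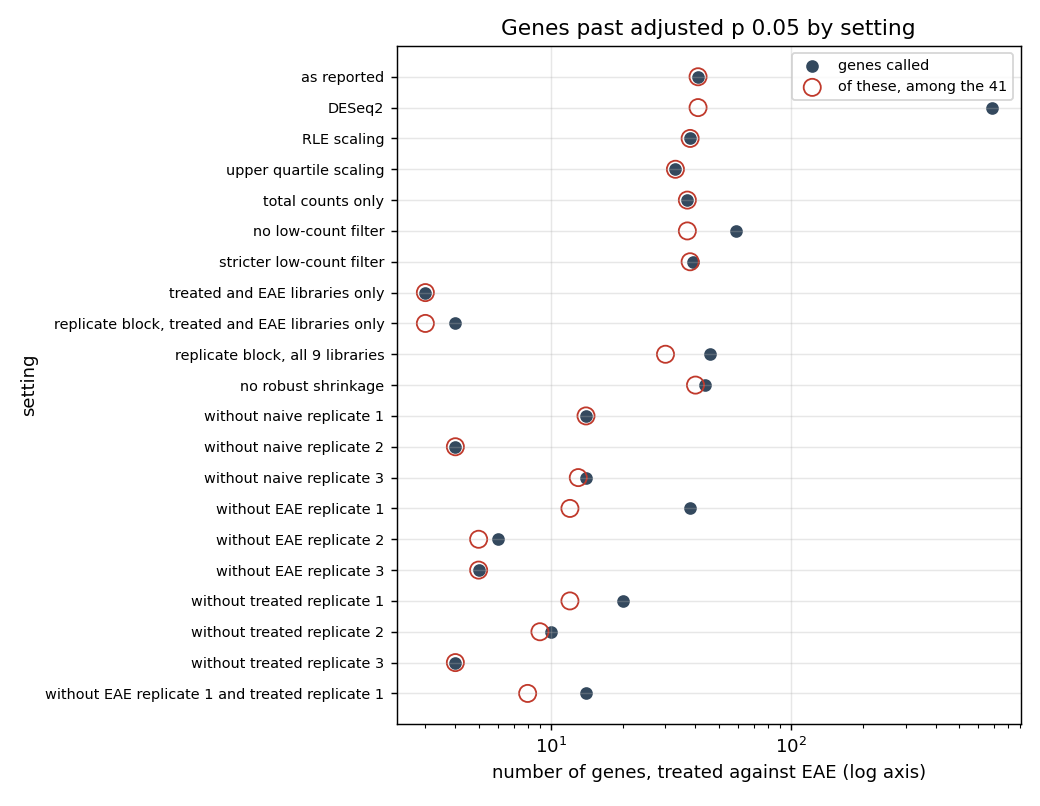
Number of genes past an adjusted p of 0.05 (x axis, log scale) under each setting (rows); filled points count all genes called and open circles those among the 41. DESeq2 sits at 688 and the fits of 6 libraries at 3 and 4, and leaving out 1 library gave 4 to 38.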

How the data were processed

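Reads of poly(A) RNA from cortex were checked with FastQC 0.11.8 and trimmed with fastp (build mm10), per the submitters' processing notes; the series' design text adds alignment with Hisat2, quantification with bowtie2 and DESeq2. The authors deposited counts per gene; no source used here states strand, annotation or counting rule. Columns of 9 libraries matched the labels; 9 others matched no sample and were not used. Genes were filtered (filterByExpr) and fitted with edgeR 4.0.16 (R 4.3.3, TMM, robust quasi-likelihood) on all 9 libraries by group, with Benjamini-Hochberg adjustment over 18644 genes and a threshold of 0.05; the code was tested on simulated data. CPM are counts per library total times TMM factor, scaled as usual. DESeq2 1.42.0, other scalings and filters, blocks and fits without a library were alternatives. Named are called genes with groups that do not overlap, no placeholder symbol and a mean log2 CPM that reached 0 (15 largest rises and falls, 10 smallest p), the inflammasome genes, up to 4 per list with the smallest p, and the 5 next after the threshold. Members and lists were chosen with earlier results of these data known. Where an EAE and a treated library shared a number, they varied together (correlations 0.17, 0.24 and 0.24). Where their numbers differed, the correlations were -0.16 to -0.04. Naive and treated libraries gave -0.25, -0.12 and 0.20 with a shared number. Across numbers, naive replicate 1 with treated replicate 2 gave 0.35, and naive replicate 2 with treated replicate 1 gave 0.29. Values of this size therefore do not establish that the numbers mark pairs. Pairs by number were assumed in alternatives only, from the data and not the labels, and the main fit used none. No libraries were copies. Of the called genes, 2 are not reported here by name and enter the counts only. Lengths, overlaps and sequences are from RefSeq GRCm38.p6 and GENCODE.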

Additional observations from a re-analysis of the deposited data

How the results depend on the processing

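As reported, 41 genes were called, 17 higher and 24 lower. DESeq2 called 688 (315 higher, 373 lower), and 166 when a log2 change of more than 1 in size was also required, an alternative chosen after seeing the data; edgeR with that limit left 11. Without a low-count filter 59 passed (22 higher, 37 lower), with 37 of the 41 among them. The treated and EAE libraries alone gave 3 (0 higher, 3 lower), and with a replicate block 4 (0 higher, 4 lower); with a replicate block in all 9 libraries 46 passed (16 higher, 30 lower). Leaving out 1 library gave 4 to 38 called, 1 to 14 higher and 3 to 34 lower. Without EAE replicate 1 and treated replicate 1, a pair by number, 14 passed (5 higher, 9 lower). Scaling by RLE, upper quartile or total counts called 38, 33 and 37, and moved the median of all genes by under 0.1. Of the called genes' fold changes under alternatives, 386 passed, 434 did not and 0 reversed. Without 1 library, or without EAE replicate 1 and treated replicate 1 together, the log2 fold change of Nlrp3 ran from -0.080 (without that pair) to 0.94 (without EAE replicate 2), that of Casp1 from -1.29 (without that pair) to 0.19 (without EAE replicate 3), and that of Il1b from -0.48 (without EAE replicate 1) to 1.69 (without EAE replicate 3). Reversed besides these ends were Casp1 at 0.023 without treated replicate 3, and Il1b at -0.13 without EAE replicate 2, -0.23 without treated replicate 2, -0.056 without treated replicate 3 and -0.079 without that pair; the cause was not tested. List medians under alternatives moved by over their spread 13 times and by less 327 times, and 3 libraries a group limit all intervals.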

Other observations

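Protein-folding and amino acid stress genes gave no called gene by edgeR. In 22 heat shock genes 0 were called (12 at an unadjusted p under 0.05, 3 higher and 2 lower with DESeq2), 15 lay above 0 and the median was 0.13. Hsph1, a large chaperone of the HSP110 family, measured 266, 294 and 257 CPM in treated and 204, 183 and 207 CPM in EAE libraries (log2 fold change 0.46, SE 0.10, adjusted p = 0.0953), while the small heat shock gene Hspb8 had -0.69 (SE 0.17, adjusted p = 0.125). Of 22 unfolded protein response genes 0 were called (9 at an unadjusted p under 0.05, 4 with DESeq2, median 0.12), with Hsp90b1, the endoplasmic reticulum HSP90, at 0.26 (SE 0.07, adjusted p = 0.131). Of 21 ATF4 targets 0 were called (8 at an unadjusted p under 0.05, 3 higher and 1 lower with DESeq2, median 0.17). Chac1, which degrades glutathione, measured 7.99, 7.92 and 6.98 CPM in treated and 5.13, 4.20 and 4.66 CPM in EAE libraries (log2 fold change 0.71, SE 0.13, adjusted p = 0.0758). Genes without overlap of the groups were 13 of 22 for heat shock, 11 of 22 for the unfolded protein response and 9 of 21 for ATF4. Over all genes the share was 19.2%.

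Respiratory chain and proteasome genes lay at the centre of the distribution. The median was 0.02 over 74 nuclear genes of the respiratory chain, with 0 called, 3 at an unadjusted p under 0.05 and 1 with DESeq2. Over 31 proteasome genes it was 0.00, with 0 called, 0 at an unadjusted p under 0.05 and 0 with DESeq2. Among 46 potassium channel genes 1 was called, Kcna6, beside 0.0912% of all genes called higher. Above 0 lay 35 of the 46 (50.6% of all genes did), and the median was 0.14. The groups did not overlap in 7 of them (15.2%), beside 19.2% of all genes. An unadjusted p under 0.05 was reached by 6, beside 15.1% of all genes. Of 25 myelin and oligodendrocyte genes 0 were called (1 at an unadjusted p under 0.05, 1 with DESeq2), with a median of 0.15. Ucp2, a mitochondrial carrier, had -1.04 (SE 0.18, adjusted p = 0.0667) and Apod, a lipocalin that carries lipids, -1.24 (SE 0.21, adjusted p = 0.0667), both outside the threshold.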
